A study of Mus musculus with 12 samples.

Results

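Mrc1, Cd163, Pf4, Ms4a4a, Clec10a, Clec4n, Cd209g, Dab2 and Pla2g2d are 9 genes known from the macrophages that line the borders of the brain, and here they were far higher in libraries labelled neural stem cells than in the libraries of 2 other cell populations sorted from the same tissue. They were chosen by name from an earlier look at these data, in which they stood out as high in the stem libraries. The values of the stem libraries against the other populations are therefore given as a description, without a test. The 9 genes were taken by Ensembl identifier and mouse symbol from a table of 10749 genes, of which 8362 had enough reads to be tested, and all 9 were among those tested.

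RNA was sequenced from cells sorted by flow cytometry from the dentate gyrus, the part of the hippocampus where neurons are made in adults, of mice aged 8 weeks that carried the transgene Tg(Lpar1-EGFP)GX193Gsat. In these mice the regulatory sequences of the lysophosphatidic acid receptor gene Lpar1 drive a green fluorescent protein, and the labels call the genotype LPA1-GFP. All 12 libraries carried the reporter, which came from an FVB/N-Swiss Webster background and was rederived by in vitro fertilisation into C57BL/6. The stem group (4 libraries) held cells sorted as LPA1-GFP+EGFR+Prominin1+. The label of the progenitor group (4 libraries) lists 3 marker combinations among the green cells, namely EGFR+Prominin-1-, EGF-Prominin-1+ (as it is spelled there) and EGFR-Prominin-1-. The niche group (4 libraries) held cells sorted as LPA1-GFP-. RNA from 1000 cells was amplified for each library, and 4 replicates of each population were sequenced. What a replicate was (an animal, a pool or a sort day) is not stated, so the spread between libraries may be partly technical, and no gate against blood or immune cells is described in the sources used here.

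Macrophages at the brain's borders live in the meninges, in the spaces around blood vessels and in the choroid plexus, and are a population apart from microglia, the macrophages of the brain tissue itself. They take up proteins, lipids and microbial sugars from fluid and blood through scavenger receptors and C-type lectins, which are membrane proteins with a carbohydrate-binding fold. Microglia share with them a set of general macrophage genes, such as the growth factor receptor gene Csf1r, but have little of the mannose receptor Mrc1 or of the haemoglobin receptor Cd163 under normal conditions.

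By totals inferred from the deposited values, the libraries held between 7597256 and 22854036 reads, and between 8037 and 9700 genes had a read. Levels are given as RPKM, that is reads divided by the exon length of the gene and by the total of the library, and are scaled between libraries. Egfr, whose protein was a sort marker, was 34.3 ± 6.52 RPKM (SD, n = 4) in the stem libraries, 5.68 ± 3.99 in the progenitor libraries and 8.31 ± 9.18 in the niche libraries. It was higher in stem than in progenitor by 2.64 on the log2 scale (limma, adjusted p = 0.0268). Of 8 tested genes known from neural stem cells it was the only one called higher, as were 3.74% of all tested genes. Id4 and Vnn1 were called lower, as were 3.54% of all tested genes, and the median difference of the 8 was -0.30. Prom1 and Lpar1, genes of the other sort markers, were not analysed here. Niche replicate 1 stood apart: its scaling factor was 0.432, and its red cell genes summed to 1043310 RPKM, against a range of 36933 to 180206 in the other niche libraries. It enters each niche value that follows.

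The promoters of the 9 genes were read as the 250 bases before each gene's start in RefSeq (GRCm38.p6). Of the 9 genes, 7 matched an entry, with 2 start sites for Dab2, and the genes without an entry were Clec10a and Clec4n. The core letters bound by PU.1, the transcription factor encoded by Spi1 that is required for the macrophage lineage, were searched as GAGGAA on both strands. They occurred before the start of Mrc1 and Pf4 and before both starts of Dab2, that is in 4 of the 8 promoters of 7 matched genes, against 23.3% of 32851 promoters of the same length. A sequence of each gene is shown, with the PU.1 letters in capitals (read here on the opposite strand as TTCCTC), because Mrc1 holds 3 such matches and Pf4 holds 1 almost at its start. All 3 genes lie on the + strand.
Mrc1, chr2:14229164-14229413: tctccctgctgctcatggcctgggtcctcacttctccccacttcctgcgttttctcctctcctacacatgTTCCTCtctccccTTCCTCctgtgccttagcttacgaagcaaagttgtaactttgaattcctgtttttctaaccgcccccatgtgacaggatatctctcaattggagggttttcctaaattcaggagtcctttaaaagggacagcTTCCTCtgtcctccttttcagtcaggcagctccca
Pf4, chr5:90772185-90772434: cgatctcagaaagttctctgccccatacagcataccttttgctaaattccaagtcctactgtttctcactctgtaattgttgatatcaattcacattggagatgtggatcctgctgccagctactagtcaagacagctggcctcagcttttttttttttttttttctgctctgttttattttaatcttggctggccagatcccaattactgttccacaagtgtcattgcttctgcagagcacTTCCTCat
Dab2, chr15:6299539-6299788: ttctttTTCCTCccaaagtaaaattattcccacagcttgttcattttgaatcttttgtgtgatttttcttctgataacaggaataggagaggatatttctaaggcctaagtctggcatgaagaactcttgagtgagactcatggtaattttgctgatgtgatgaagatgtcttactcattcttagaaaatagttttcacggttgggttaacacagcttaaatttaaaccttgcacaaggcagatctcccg
The matches before Mrc1 began 180, 167 and 35 bases before the start site, the match before Pf4 began 8 bases before it, and the match before the Dab2 start shown began 244 bases before it. The match before the other Dab2 start began 249 bases before that start. A half-site of the MAF factors (TGCTGA, either strand) was found before Dab2 and Ms4a4a, against 16.1% of all promoters. An AP-1 site (TGANTCA) was found before Cd209g only, against 6.75%, and a C/EBP site (TTGCNNAA, either strand) before Pf4 and Dab2, against 9.56%. Neither Cd163 nor Pla2g2d held any of the 4 motifs in this window, and no match of 1 motif overlapped a match of another. A match describes the letters and not a bound site.

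Among the receptors, Mrc1 (ENSMUSG00000026712, chr2:14229392-14332057 in GRCm38), the mannose receptor that takes up glycoproteins ending in mannose, was measured at 312, 738, 183 and 187 RPKM in stem replicates 1 to 4. In the progenitor libraries it was 4.76, 13.9, 5.93 and 12.2 RPKM, and in the niche libraries 11.7, 4.95, 5.26 and 11.2 RPKM. The lowest stem library had 13.2 times the level of the highest progenitor library and 15.6 times that of the highest niche library, and the progenitor and niche libraries overlapped. In bulk libraries such as these, fewer cells of a type and less RNA per cell cannot be told apart. The microRNA gene Mir511 lies within Mrc1 on the same strand.

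Cd163 (ENSMUSG00000008845, chr6:124304656-124330527) encodes the receptor that clears complexes of haemoglobin and haptoglobin. It was at 79.5, 169, 37.6 and 53.2 RPKM in the stem libraries, at 0.41, 4.58, 1.17 and 4.75 RPKM in the progenitor libraries, and at 1.40, 0.39, 0.49 and 2.88 RPKM in the niche libraries. Stem replicate 2 was again the highest of all, and the progenitor and niche libraries with the fewest Cd163 reads held 25 and 28 reads. Its niche mean was 1.29 RPKM, and 0.762 without niche replicate 4.

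Clec10a (ENSMUSG00000000318, chr11:70156197-70170834), a lectin for sugars that hold galactose, was at 147, 453, 127 and 135 RPKM in the stem libraries. It was at 0.78, 7.91, 4.11 and 11.4 RPKM in the progenitor libraries and at 2.33, 14.2, 2.41 and 16.4 RPKM in the niche libraries. Progenitor replicate 1 was the lowest of all 12, and niche replicates 2 and 4 were several times above niche replicates 1 and 3. Clec10a and its neighbour Mgl2 are close copies, and how reads matching both were counted is not given in the sources used here, so the split between them is uncertain.

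Clec4n (ENSMUSG00000023349, chr6:123229843-123247021) encodes dectin-2, a lectin for fungal mannans. It was at 73.8, 233, 73.9 and 65.9 RPKM in the stem libraries, at 0.51, 3.76, 2.76 and 3.00 RPKM in the progenitor libraries, and at 1.21, 0.27, 0.56 and 11.1 RPKM in the niche libraries. The niche values rested on 9, 6, 10 and 106 reads, so its niche mean of 3.29 ± 5.24 RPKM (SD, n = 4) was set by niche replicate 4. Without that library the niche mean was 0.677 RPKM.

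Cd209g (ENSMUSG00000079168, chr8:4134098-4137707) is a member of the mouse CD209 lectin family, whose copies are similar in sequence, so its reads too may be shared with relatives. It was at 686, 2739, 584 and 486 RPKM in the stem libraries, at 11.8, 54.3, 14.9 and 22.9 RPKM in the progenitor libraries, and at 87.1, 18.5, 13.1 and 38.1 RPKM in the niche libraries. The exon length behind these values was 1088 bases against 3610 in the annotation used here, which moves its level relative to other genes but not its comparison between libraries. Its progenitor mean of 26.0 RPKM was 16.5 without progenitor replicate 2, and its niche mean of 39.2 RPKM was 23.2 without niche replicate 1.

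Dab2 (ENSMUSG00000022150, chr15:6299788-6440712) encodes an adaptor that links receptors of the LDL receptor family to clathrin. It was at 390.1, 866, 229 and 174 RPKM in the stem libraries, at 5.38, 22.8, 11.9 and 16.8 RPKM in the progenitor libraries, and at 5.12, 6.84, 16.5 and 13.9 RPKM in the niche libraries. With 15110 to 58777 reads in a stem library it was among the best counted of the 9 genes. The antisense gene Gm16311 and the pseudogene Gm18888 overlap it on the other strand, and whether the authors' counting used strand is not given in the sources used here.

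Ms4a4a (ENSMUSG00000101389, chr19:11375523-11392790) encodes a protein of the MS4A family, which spans the membrane several times. It was at 226, 733, 169.7 and 255 RPKM in the stem libraries, at 2.18, 18.9, 8.14 and 25.8 RPKM in the progenitor libraries, and at 3.65, 1.82, 1.70 and 15.5 RPKM in the niche libraries. Progenitor replicate 1 was far below the other 3 progenitor libraries, and niche replicate 4 was far above the other 3 niche libraries. The niche mean was 5.67 RPKM, and 2.39 without niche replicate 4.

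Of the 2 secreted products, Pf4 (ENSMUSG00000029373, chr5:90772435-90773383), platelet factor 4, is a CXC chemokine best known from platelets and also made by border macrophages. It was at 1319.6, 4684, 1331 and 1220.2 RPKM in the stem libraries, at 38.9, 134, 50.8 and 92.3 RPKM in the progenitor libraries, and at 599.8, 104, 47.7 and 93.0 RPKM in the niche libraries. It had the highest mean level of the 9 genes in each population, and its niche replicate 1 stood nearest to the stem libraries of any library of the other populations. The lowest stem library was 2.03 times that niche library. Without niche replicate 1 the niche mean of Pf4 was 81.6 RPKM in place of 211.

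Pla2g2d (ENSMUSG00000041202, chr4:138775735-138782046) encodes a secreted phospholipase A2, an enzyme that releases fatty acids from phospholipids. It was at 82.6, 251, 97.0 and 68.1 RPKM in the stem libraries, at 0.59, 4.62, 2.14 and 3.69 RPKM in the progenitor libraries, and at 1.19, 0.42, 3.76 and 1.79 RPKM in the niche libraries. Its lowest stem library had 18.1 times the level of its highest niche library, the widest such gap of the 9 genes. Its niche mean of 1.79 RPKM was 1.14 without niche replicate 3.

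**Figure D1:**
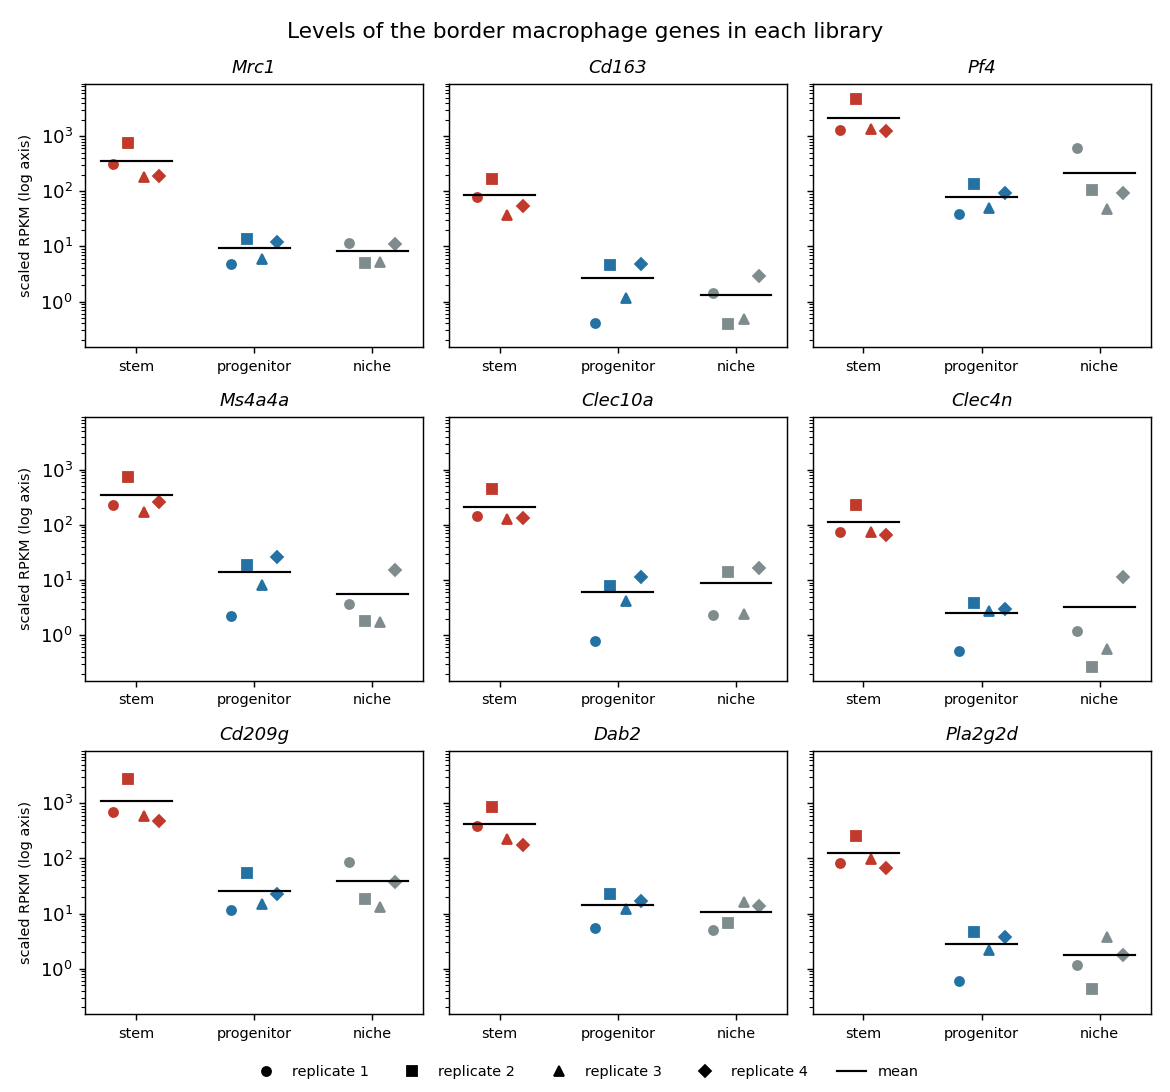
Each panel shows 1 gene, with its scaled RPKM on a log axis in the 4 stem, 4 progenitor and 4 niche libraries; the marker shape gives the replicate number and the line the mean of a population. All 4 stem points lie above all 8 others in every panel, and the square of stem replicate 2 is the highest point of every panel.

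In mean level per length, the stem order ran from Pf4 (2139 ± 1698 RPKM, SD, n = 4) and Cd209g (1124 ± 1080) through Dab2 (415 ± 315), Mrc1 (355 ± 262), Ms4a4a (346 ± 260) and Clec10a (216 ± 158) to Pla2g2d (125 ± 85.0), Clec4n (112 ± 80.8) and Cd163 (84.9 ± 58.7). Neighbours in this order overlapped in their ranges. The ratio of the stem mean to the progenitor mean ran from 25.2 (Ms4a4a) to 45.2 (Pla2g2d). The ratio of the stem mean to the niche mean ran from 10.1 (Pf4) to 69.5 (Pla2g2d).

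On the log2(RPKM + 1) scale, which understates the change of low genes, the stem minus progenitor difference lay between 4.54 (Cd163, SE 0.60) and 5.23 (Cd209g, SE 0.63), with a median of 4.91 over the 9 genes against -0.06 over all tested genes. The stem minus niche difference lay between 3.77 (Pf4, SE 0.65) and 5.89 (Ms4a4a, SE 0.70), with a median of 5.10 against 0.11. Both comparisons use the same 4 stem libraries, so they are not independent of each other. All 9 genes passed the threshold of an adjusted p of 0.05 as higher in stem than in progenitor, a direction in which limma called 3.74% of all tested genes, and as higher in stem than in niche, where it called 11.3%. In each gene every stem library lay above all 4 progenitor libraries, as in 11.3% of all tested genes, and above all 4 niche libraries, as in 12.6%. Every stem library lay above all 8 others in 4.96% of all tested genes. Since these contrasts chose the genes, nothing is read from the counts. By size of difference the 9 genes ranked between 2 and 20 among the 8362 genes for stem minus progenitor, and between 3 and 85 for stem minus niche.

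**Figure D2:**
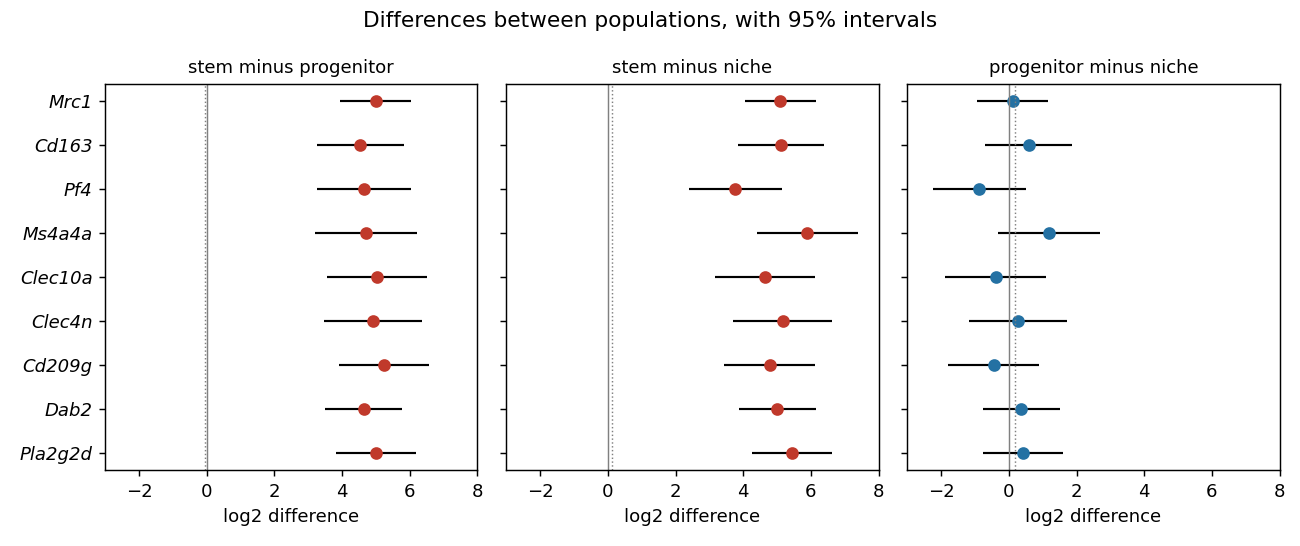
Points give the log2 difference between 2 populations for each gene and lines the 95% interval of the fit; the solid line marks 0 and the dotted line the median of all tested genes. Stem minus progenitor and stem minus niche lie between 3.77 and 5.89, while every interval of progenitor minus niche crosses 0.

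In progenitor against niche the difference itself used no stem library, although the genes had been noticed for being low in both. Its SE, intervals and p-values rest on a spread shared by all 12 libraries, so the stem libraries enter them. None of the 9 genes passed the threshold in this comparison, in which limma called 11.7% of all tested genes (6.08% as higher in progenitor and 5.67% as lower). At an unadjusted p under 0.05 (limma) the count was also 0, where 2293 of the 8362 tested genes passed. The count of the 9 was 0 as well in every alternative that was run at the adjusted threshold, a fit of only these 2 groups among them. None of the 9 separated the 2 populations without overlap, whereas 9.05% of all tested genes did with progenitor higher and 6.66% with progenitor lower. The difference was positive for 6 genes and negative for 3, with a median of 0.26 against 0.18 over all tested genes. The widest differences were those of Ms4a4a, 1.18 (SE 0.70, 95% interval -0.31 to 2.68, limma adjusted p = 0.294), and of Pf4, -0.87 (interval -2.25 to 0.51, adjusted p = 0.409). Mrc1 differed least, by 0.11 (interval -0.94 to 1.16, limma adjusted p = 0.912). The interval of Clec10a ran from -1.88 to 1.09 and that of Clec4n from -1.19 to 1.71, so a difference of 1 on the log2 scale in either direction was not detectable at this spread. A missed threshold here does not show equal levels.

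Within the stem group the 9 genes stood highest in the same library. Stem replicate 2 was the highest library for 9 of 9 genes, while it was the highest for 26.9% of all tested genes. Its level exceeded the mean of the other 3 stem libraries by between 2.98 times (Cd163) and 4.68 times (Cd209g). On the log2 scale the gap had a median of 1.74 over the 9 genes and of -0.08 over all tested genes. The lowest stem library was replicate 3 for 4 genes and replicate 4 for 5 genes.

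Reads of the 9 genes made up 0.843%, 2.08%, 0.557% and 0.540% of stem libraries 1 to 4. They made up between 0.0095% and 0.0523% of a progenitor library and between 0.0158% and 0.0294% of a niche library. In stem replicate 2 the 8 neural stem genes that could be measured (Sox2, Nes, Egfr, Sox1, Id4, Fabp7, Vnn1 and Pax6) had their lowest mean of the group, 3.80 on the log2 scale against 4.48 to 4.60 in the other 3. How far the makeup of that library takes part in the levels of the 9 genes was not tested. Without it, the stem mean of Mrc1 was 227 RPKM in place of 355, that of Pf4 was 1290.1 in place of 2139, and that of Cd209g was 585 in place of 1124. The stem means without it were 264 RPKM for Dab2, 217 for Ms4a4a, 137 for Clec10a, 82.6 for Pla2g2d, 71.2 for Clec4n and 56.8 for Cd163. All 9 genes stayed over 4 log2 units above the progenitor libraries without stem replicate 2, and between 3.31 and 5.45 above the niche libraries.

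Among the progenitor libraries, replicate 1 was the lowest for 9 of 9 genes, against 45.9% of all tested genes. Replicate 2 was the highest for 6 of the genes and replicate 4 for the other 3. Among the niche libraries no single replicate led: replicate 4 was the highest for 4 genes, replicate 1 for 3 (Mrc1, Pf4 and Cd209g) and replicate 3 for 2 (Dab2 and Pla2g2d).

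The proportions among the 9 genes varied more between niche libraries than between stem or progenitor libraries for 7 of them, and not for Cd163 and Mrc1. Measured as a gene's log2 level minus the mean of the 9 in the same library, Pf4 stood at 2.75 ± 0.16 (SD, n = 4) in stem, 2.96 ± 0.25 in progenitor and 3.97 ± 1.46 in niche. Cd163 stood at -1.86 ± 0.31, -1.54 ± 0.22 and -1.99 ± 0.10 in the same order. Mrc1 kept near the mean, at 0.17 ± 0.18, 0.04 ± 0.29 and 0.06 ± 0.26. Ms4a4a was the gene with the lowest niche value relative to its stem value, at 0.14 ± 0.28 in stem and -0.76 ± 0.65 in niche. Its ranges in stem (-0.08 to 0.53) and niche (-1.11 to 0.20) overlapped. For low genes the 1 added before the logarithm pulls these values together, and no test was made of them.

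**Figure D3:**
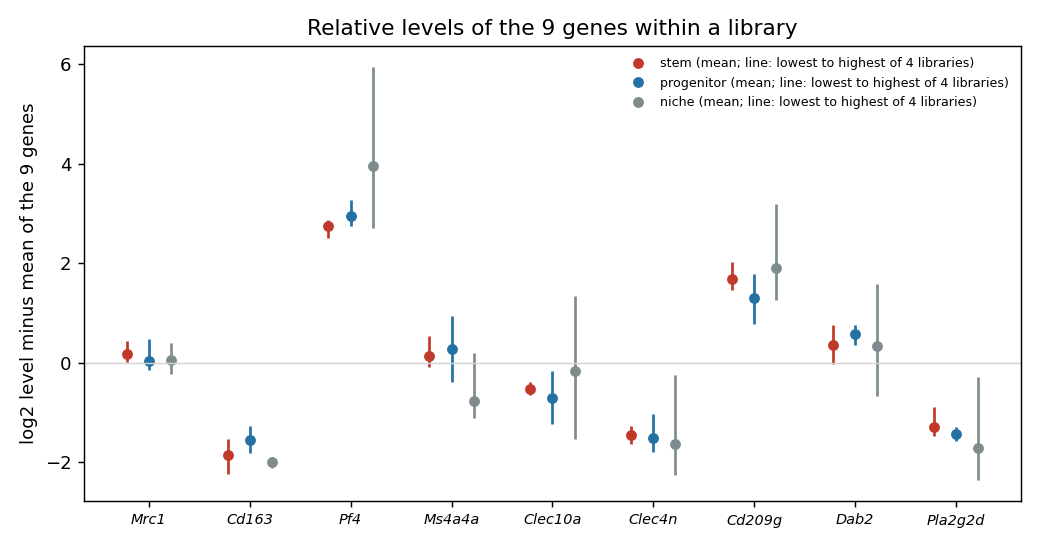
For each gene the point is the mean, over the 4 libraries of a population, of its log2 level minus the mean of the 9 genes in the same library, and the line runs from the lowest to the highest library. Stem and progenitor points lie close for each gene, and the widest line is that of Pf4 in niche, from 2.72 to 5.96.

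Over the 12 libraries the pairs among the 9 genes had Pearson correlations of log2 level between 0.852 (Pf4 with Dab2) and 0.991 (Mrc1 with Cd163). These describe libraries that fall into 3 populations and share their depth and scaling, and they carry no test.

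The name border macrophage was checked against other genes known from these cells. Of a list of 31, 11 could be measured and 10 were tested, and the widely used markers Lyve1, F13a1, Folr2 and Stab1 were not analysed here. In stem against progenitor 9 of the 10 were called higher, with a median log2 difference of 3.94, and in stem against niche 9 of 10, with a median of 3.37. Of all tested genes 3.74% and 11.3% were called so. The gene that missed the threshold was the collectin Colec12 in the first comparison and Lilra5 in the second. These counts come from the contrasts that chose the 9 genes, and the list was drawn up with earlier results known. In progenitor against niche, where limma called 11.7% of all tested genes (5.67% as lower), 1 of the 10 was called, near that share. It was the ectoenzyme gene Cd38, with a difference of -2.17 (limma, adjusted p = 0.0297). That call was lost without progenitor replicate 1 or 3 and without niche replicate 2 or 3.

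The 3 genes of that list with the highest stem means were also highest in stem replicate 2. The lectin gene Mgl2 was at 166, 473, 98.6 and 86.7 RPKM in the stem libraries, with means of 7.27 ± 5.25 RPKM in progenitor and 18.6 ± 20.5 RPKM in niche. The chemokine gene Ccl8 was at 34.4, 648, 40.0 and 48.3 RPKM in the stem libraries, so that stem replicate 2 alone set its mean of 193 RPKM. Wfdc17 was at 97.2, 386, 115 and 153 RPKM in the stem libraries, and between 1.33 and 28.9 RPKM in the other 8. The stem libraries of each of these 3 genes lay above all others.

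Microglia genes took another order of the populations. The 5 that could be tested, Siglech, Gpr34, Crybb1, Slc2a5 and Trem2, were all called lower in stem than in niche (median -2.33 on the log2 scale), a direction in which 10.6% of all tested genes were called, although 3 of the 5 were called without stem replicate 4. They were also all called lower in progenitor than in niche (median -5.06), where 5.67% of all tested genes were. Siglech, a lectin of microglia, was at 14.6 ± 8.13 RPKM (SD, n = 4) in stem and 152 ± 27.7 RPKM in niche, and its libraries in these groups did not overlap (8.88 to 26.2 RPKM against 112 to 173 RPKM). In stem against progenitor 4 of the 5 were called higher, and the exception was the fructose transporter Slc2a5, at 1.84 ± 1.49 RPKM in stem and 106 ± 109 RPKM in niche. The microglia markers Tmem119, P2ry12 and Cx3cr1 were not analysed here.

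Most genes of all macrophages passed no threshold between stem and niche, and were low in progenitor. Of 10 tested, 9 were called higher in stem than in progenitor (median 3.88; Mpeg1 was not called), and all 10 were called lower in progenitor than in niche (median -3.78). Among all tested genes 3.74% were called in the first of these directions and 5.67% in the second. In stem against niche 11.3% of all tested genes were called higher and 10.6% lower. Of the 10 genes, 1 was called higher and 2 lower (Ctss and Mpeg1), near those shares, with a median of 0.00. The number called lower ran from 0 (without stem replicate 3 or 4, or niche replicate 2 or 4) to 3 when 1 library was left out. Csf1r, the receptor on which macrophages depend, was at 547, 1016, 329 and 308 RPKM in the stem libraries, between 6.17 and 29.1 RPKM in the progenitor libraries and between 182 and 313 RPKM in the niche libraries. Its stem minus niche difference was 0.87 (SE 0.45, limma adjusted p = 0.185). The gene called higher, Adgre1, encodes the macrophage antigen F4/80 and was at 285 ± 192 RPKM in stem against 44.7 ± 32.2 RPKM in niche (2.88 on the log2 scale, limma adjusted p = 0.00738). The signalling adaptor gene Tyrobp differed by -0.05 between stem and niche (SE 0.41, limma adjusted p = 0.954).

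Set against the microglia genes of the same library, the 9 genes were on average 3.06 to 4.07 log2 units higher in each stem library and 3.25 to 5.08 units lower in each niche library. Set against the 10 genes of all macrophages, they were 1.16 to 1.44 units higher in each stem library, between -0.38 and 0.50 in the progenitor libraries and between -4.48 and -3.12 in the niche libraries. The stem and niche ranges did not overlap on either measure. The share of this contrast that rests on the choice of the 9 genes is not known, since they were chosen as high in stem. With the other border genes included, 19 in all, the difference from the microglia genes was -4.47 ± 0.79 (SD, n = 4) in niche, 0.70 ± 0.63 in progenitor and 2.40 ± 0.49 in stem.

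**Figure D4:**
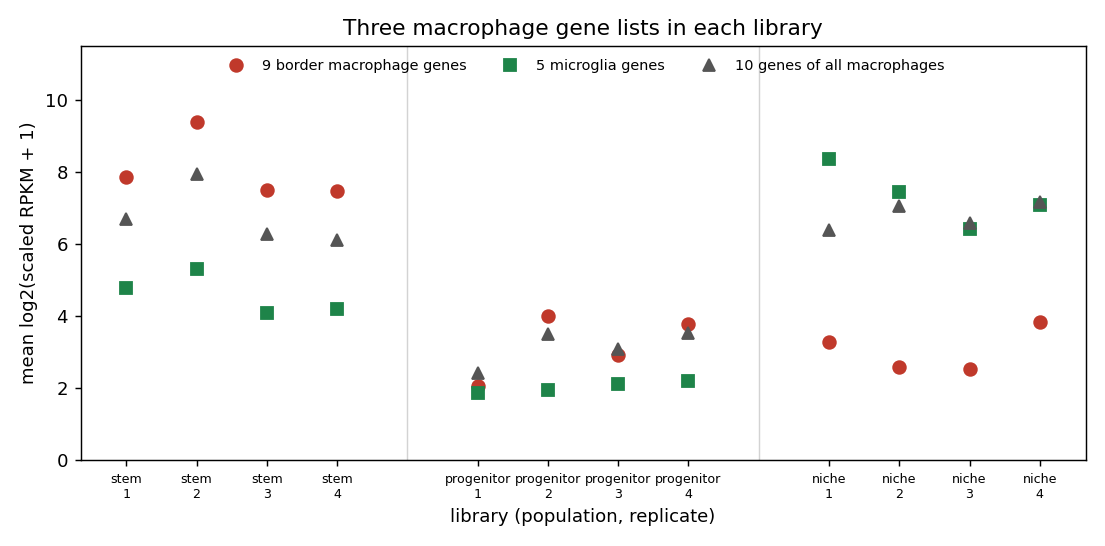
The mean log2(scaled RPKM + 1) of the 9 genes, of 5 microglia genes and of 10 genes of all macrophages is drawn for each library. The 9 genes lie above both other lists in the 4 stem libraries (7.47 to 9.39) and below both in the 4 niche libraries (2.54 to 3.84), while the genes of all macrophages span 6.13 to 7.95 in stem and 6.40 to 7.17 in niche.

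Other blood and border cell types were looked at through lists of their own. Of the platelet genes, 5 could be measured, and they summed to between 0 and 2.95 RPKM in the stem libraries, where Pf4 was at 1220.2 RPKM or more. Ppbp, the platelet chemokine gene 2.37 kb from Pf4, averaged 0.129 RPKM in stem. In niche replicate 1, where Pf4 reached 599.8 RPKM, all 5 platelet genes were at 0 reads, which at 3 reads allows each up to 0.247 CPM (reads divided by the library total alone). Red cell genes summed to between 224 and 2070 RPKM in stem and to at least 36933 RPKM in niche, the opposite order to the 9 genes.

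Of the lymphocyte genes 2 were tested and none was called in any comparison, and the 5 measured summed to 1.68 to 8.42 RPKM in stem. None of 6 dendritic cell genes was called in stem against progenitor or stem against niche. The highest of these, the MHC class II chain Cd74, was at 630 ± 604 RPKM in stem and 753 ± 575 RPKM in niche. Of 10 genes of fibroblasts and meninges, 4 were called lower in stem than in progenitor (Col1a2, Dcn, Lum and Slc6a13), a direction in which 3.54% of all tested genes were called, and none higher. Their summed level was 7.03 to 73.9 RPKM in stem and 114 to 338 RPKM in progenitor. Of 5 mural cell genes, Rgs5, Vtn and Higd1b were called lower in stem than in each other population. Of 4 tested genes of monocytes and neutrophils, the protease gene Mmp9 was called higher in stem than in progenitor (5.55 on the log2 scale, limma adjusted p = 6.83e-05) and in niche (5.37, adjusted p = 1.5e-05). Csf3r, the receptor for granulocyte colony-stimulating factor, was called higher in stem than in progenitor (2.57, limma adjusted p = 0.00666) and not against niche. Their part in the levels of the 9 genes was not tested.

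Relatives of the 9 genes, and genes of their pathways, were counted from lists of their own. Beside these counts, 3.74% of all tested genes were called higher and 3.54% lower in stem than in progenitor, and 11.3% higher and 10.6% lower in stem than in niche. Of 9 further C-type lectin genes 5 were called higher in stem than in progenitor, and Clec4a1 (142 ± 101 RPKM in stem, 6.05 ± 2.93 in progenitor, 9.16 ± 17.1 in niche) showed the largest stem minus niche difference of them, 5.17. Clec4a2, in contrast, was at 63.4 ± 48.6 RPKM in stem and 64.8 ± 67.4 RPKM in niche. Of 3 further genes of the Ms4a family, Ms4a6b and Ms4a6c were called higher in stem than in each other population, and Ms4a4c was not called. Of 3 further CXC chemokines, Cxcl1 and Cxcl2 were called higher in stem than in each other population, while Cxcl12, a chemokine of stromal cells, was called lower in stem than in niche.

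For the phospholipases A2, 5 relatives of Pla2g2d were tested. Pla2g15, a lysosomal member, was called higher in stem than in progenitor (94.3 ± 62.2 against 5.67 ± 3.74 RPKM) and Pla2g16 lower (6.74 ± 0.46 against 43.9 ± 19.7 RPKM). In stem against niche Pla2g16 and Pla2g7, the relative with the highest mean level (319 ± 141 RPKM in stem, 759 ± 281 in niche), were called lower. Of 8 genes that handle haem and iron beside Cd163, the haem oxygenase gene Hmox1 (112 ± 83.0 against 8.44 ± 5.30 RPKM, log2 difference 3.71, limma adjusted p = 0.00613) and the iron exporter of phagosomes Slc11a1 (3.98, adjusted p = 0.00538) were called higher in stem than in progenitor. Neither passed the threshold in stem against niche, where of the same 8 genes the biliverdin reductase gene Blvrb was called higher (1.70, limma adjusted p = 0.0371) and the haem transporter gene Slc48a1 lower (-2.19, adjusted p = 0.00349). Of 12 endocytic genes beside Dab2, none was called higher in either stem comparison and 1, the lipoprotein receptor gene Vldlr, was called lower in both. The clathrin adaptor subunit Ap2m1, for example, was at 349 ± 33.2, 306 ± 14.8 and 304 ± 32.9 RPKM in stem, progenitor and niche.

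Genes linked with the alternatively activated state of macrophages, in which Mrc1 and Clec10a are usually counted, were followed with 5 further tested genes. Il4ra, Stat6, Irf4 and Mgl2 were called higher in stem than in progenitor, and Irf4 and Mgl2 also in stem than in niche. Il4ra, the receptor chain for interleukin-4, was at 33.8 ± 23.1 RPKM in stem, 1.29 ± 0.93 in progenitor and 15.5 ± 18.7 in niche. Il10 averaged 2.66 ± 2.97 RPKM in stem and had too few reads to be tested, and Retnla, Ccl17 and Ccl22 had no read in any stem library, which at 3 reads allows up to 0.232 to 0.345 CPM, counting error only.

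Of 12 transcription factors of macrophages, 7 were called higher in stem than in progenitor and none in stem against niche, while 5 were lower in progenitor than in niche. Of all tested genes 3.74%, 11.3% and 5.67% were called in these directions. Spi1, which encodes PU.1, had a mean of 7.05 ± 5.33 RPKM (SD, n = 4) in the stem libraries, with its highest level in stem replicate 2 and its lowest, 3.59 RPKM, in stem replicate 1. It lay between 0.07 and 0.41 RPKM in the progenitor libraries and between 2.58 and 6.73 RPKM in the niche libraries. Its stem and niche libraries overlapped (0.43 on the log2 scale, SE 0.48, limma adjusted p = 0.563). Whether PU.1 takes part in the levels of the 9 genes was not tested. The largest stem minus progenitor difference of the list was that of Klf2, 3.31 (limma adjusted p = 0.00217).

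The genes whose log2 levels ran most like the mean of the 9 over the 12 libraries were Gm11771 (Pearson r = 0.987), Mmp9 (0.986), Cd200r1 (0.984), Aoah (0.982), Serpinb8 (0.982), Timd4 (0.981), Cd80 (0.970), Kmo (0.970), Cmah (0.969) and 1700006J14Rik (0.964). Without stem replicate 2, 7 of these 10 genes stayed among the 10 nearest. Of 8353 genes compared over all 12 libraries, 51 (0.611%) had a correlation over 0.9. Gm11771 is annotated as a pseudogene and its reads may come from a similar gene. Mmp9, a matrix-degrading protease, was at 128 ± 73.7 RPKM in stem (SD, n = 4), 1.63 ± 0.98 in progenitor and 2.93 ± 4.08 in niche. Cd200r1, the inhibitory receptor for the surface protein CD200, was at 45.7 ± 30.9, 1.27 ± 0.79 and 0.352 ± 0.383 RPKM. Timd4, a receptor for phosphatidylserine on dying cells, was at 42.4 ± 41.2, 1.65 ± 2.01 and 0.312 ± 0.270 RPKM.

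Single members had their own nearest genes. Pf4 ran most like the monocyte chemokine genes Ccl12 (0.965) and Ccl2 (0.964), and Ccl2 was also nearest to Cd209g (0.962). Clec10a was nearest to Mgl2 (0.971), Clec4n to Mmp9 (0.991), Mrc1 to Aoah (0.987) and Pla2g2d to Cd200r1 (0.979). Cd163 and Dab2 were nearest to Serpinb8 (0.989 and 0.983), and Ms4a4a to Gm11771 (0.988). These points share the 3 populations, the depth and the scaling of the 12 libraries.

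The 9 genes lie on separate chromosomes, apart from Cd163 and Clec4n on chromosome 6. Within 250 kb of them 35 other genes were tested, of which 9 were called higher and 1 lower in stem than in progenitor, with a median difference of 0.11. Of all tested genes 3.74% were called higher and 3.54% lower in this comparison. Those called higher were largely relatives of the members: Mgl2 and Asgr2 beside Clec10a, Ms4a6c and Ms4a6b beside Ms4a4a, Clec4a2 and Clec4a4 beside Clec4n, Cxcl1 and Cxcl2 beside Pf4, and the immune adaptor gene Fyb 82.1 kb from Dab2. The gene called lower was the zinc transporter Slc39a12, 56.3 kb from Mrc1, at 4.85 RPKM in stem, 24.3 in progenitor and 126 in niche. Neither of the genes measured within the window of Mrc1 (Stam and Slc39a12) was higher in the stem libraries.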

How the data were processed

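Polyadenylated RNA of 12 sorted cell libraries (4 each of stem, progenitor and niche) was compared. The deposited table holds log2(RPKM + 1) per Ensembl gene, as its values show when they are undone, on mouse build GRCm38 (mm10) per the submitters' processing notes. The sources used here give no aligner, counter or use of strand. The logarithm was undone and whole reads were recovered for 100% of values (tolerance 1e-05 reads), with exon lengths that gave whole reads. The annotated length gave them for 1239 genes. For 9271 genes the length was searched for until reads came out whole, so for these the 100% is no check of the recovered reads. The library totals were also inferred from the deposited values and not taken from a reported depth. The recovered reads summed to 100.02% to 100.04% of these inferred totals, which compares the values with themselves. Genes with at least 0.767 CPM in 4 or more libraries and 15 reads or more in all were tested. RPKM values were scaled by trimmed means of M-values (trim 0.3 and 0.05), and limma 3.58.1 in R 4.3.3 (intensity trend, robust spread) was fitted on log2(scaled RPKM + 1) over all 12 libraries, with Benjamini-Hochberg adjustment over 8362 genes and a threshold of 0.05. The script was tested on simulated data. Library chi-square checks found no copy of a library within a group. The 9 genes and all gene lists were chosen with earlier results of these data known. The rule for names took from each list up to 6 genes with the largest mean level over the 12 libraries. It was not followed throughout: many list genes were named for their call, the size of their difference or their known role, after their values were seen. Promoters came from RefSeq (GRCm38.p6) and gene positions and symbols from the GENCODE annotation of GRCm38, which named 10589 identifiers. Other scalings, pseudocounts, filters, a replicate block, a fit to the recovered counts (voom) and leaving out libraries were tried as alternatives.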

Additional observations from a re-analysis of the deposited data

Results flagged for a closer look

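On the log2(RPKM + 1) scale, 1 library lay apart from the others in 3 of the 27 groups of 4 libraries examined (9 genes in 3 populations), its gap to the nearest library taking more of the group's whole range than Dixon's 95% critical value. Chance sets apart about 1 group in 20 where the groups were not chosen by their values. The 9 genes were chosen as high in stem, so that rate is no guide for the stem groups. All 3 were stem replicate 2, and the groups share their libraries, so they are not 3 independent events. The gap took 0.936 of the log2 range for Pf4, which was at 4684 RPKM there against 1220.2 to 1331 RPKM in the other stem libraries. It took 0.887 for Clec10a (453 RPKM against 127 to 147 RPKM) and 0.909 for Clec4n (233 RPKM against 65.9 to 73.9 RPKM). On the RPKM scale itself, a choice made after seeing the data, 9 groups passed. Of these, 6 were again stem replicate 2 (Pf4, Ms4a4a, Clec10a, Clec4n, Cd209g and Pla2g2d), and 3 were niche libraries: replicate 1 for Pf4 (0.898) and replicate 4 for Ms4a4a (0.859) and Clec4n (0.913).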

How the results depend on the processing

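Over 21 settings the median stem difference of the 9 genes was 4.34 to 5.21 against progenitor and 4.31 to 5.59 against niche. All 9 were called higher in every setting, but the stem libraries chose them, so nothing is read from these calls. In progenitor against niche none was called, and the lowest adjusted p was 0.0960 (limma, Ms4a4a without progenitor replicate 1). Counts over all genes moved more. Stem against progenitor gave 609 genes, but 1423 with only the 2 groups compared, 1120 without progenitor replicate 1 and niche replicate 1 together, and 360 (without stem replicate 2) to 1095 (without niche replicate 1) leaving out 1 library. Stem against niche gave 1827, but 3004 without both of those libraries and 1277 to 2489 leaving out 1. Progenitor against niche gave 982, but 1839 with library totals only, 544 with only the 2 groups, 1982 without both libraries, and 541 (without progenitor replicate 3 or 4) to 1642 (without niche replicate 1) leaving out 1; the cause was not tested, and fewer libraries or another spread enter each. With library totals only, the split of higher and lower genes turned from 941 and 886 to 2017 and 586 in stem against niche, and from 508 and 474 to 1525 and 314 in progenitor against niche, where the median of all genes rose to 0.58 and 0.62. Signs of small progenitor minus niche differences turned: with library totals only Clec10a was 0.085 and Cd209g 0.15, without both libraries Pf4 was 0.057 and Cd209g 0.24, and leaving out 1 library Mrc1 ran from -0.14 to 0.35, Clec4n from -0.10 to 0.99 and Clec10a from -0.87 to 0.16. Border minus microglia genes in stem was 3.45 with the 9 genes only, against 2.40. Microglia genes lower in stem than in niche numbered 3 with library totals only and without stem replicate 4. Libraries with the same replicate number had deviations that correlated between -0.13 and 0.21, over 0.1 in 2 of 12 pairs. Those with other numbers correlated between -0.19 and 0.14, over 0.1 in 4 of 36 pairs. These few pairs cannot decide whether the numbers pair the libraries. With the number as a replicate block the counts were 616, 1828 and 949, and no call on the 9 genes changed. A fit to the recovered counts (voom) gave 693, 1718 and 1096. Depth limits the low groups: Clec4n rested on 6 to 106 reads in niche.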
